A study of Arundinella anomala and Arundinella fluviatilis and Arundinella hirta with 8 samples.

Results

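Rubisco and its helper protein Rubisco activase were followed here through 4 maize gene models in the leaf transcriptomes of 8 C4 grasses. The models were chosen by identifier and not by level: the small subunit genes GRMZM2G113033 and GRMZM2G098520, and the activase genes GRMZM2G162200 and GRMZM2G162282. All 4 were found among the 26274 genes of the deposited expression table, where they took up 6 of its 36698 protein model lines. Their names rest on general knowledge of maize, because the deposited files hold identifiers only.

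Rubisco fixes CO2 in the Calvin cycle and is built from a large subunit encoded in the chloroplast and a small subunit encoded in the nucleus. In C4 leaves it is concentrated in bundle sheath or equivalent cells, where CO2 is released from C4 acids. Activase is an ATP-driven chloroplast protein that frees the active sites of Rubisco from bound sugar phosphates, so that the enzyme can work. Small subunit transcripts are among the most abundant of a green leaf.

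Each library came from whole leaves of a wild-type, mature plant of a different species, grown in an environmentally controlled room. The genus *Arundinella* supplied 5 species: *A. nepalensis*, *A. fluviatilis*, *A. pubescens*, *A. anomala* and *A. hirta*. Outside that genus were 3 species of as many genera, *Bothriochloa ischaemum*, *Capillipedium parviflorum* and *Imperata cylindrica*. There was 1 library per species, so no species has an error of its own, and every spread given here is a spread between species. Levels are FPKM, numbers of fragments corrected for sequence length and library size. Genes are therefore compared per length, but unequal likeness of their sequences to the maize models is not corrected for. The files hold no read counts, so depth is unknown and no counting interval can be given.

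The libraries fell into 2 kinds by how much of the table they filled. *A. anomala*, *A. fluviatilis*, *A. nepalensis* and *A. pubescens* listed between 18023 and 20607 genes above 0, with a listed total of 701722 to 829005 FPKM. *A. hirta* and the 3 other genera listed between 8142 and 10697 genes, with totals of 212357 to 349576 FPKM. Values are listed under maize models, and a gene with a sequence unlike that of maize may get a low value or none, which is why a gene without signal is called "listed at 0". The files do not show whether each species has its own counterpart of each maize gene. A gene or copy named here is therefore a maize model, and its level is the signal listed under that model.

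Of the 2 small subunit genes, GRMZM2G113033 had the higher level in all 8 libraries. It stood at 11028 FPKM for *A. nepalensis*, 5183 for *B. ischaemum*, 4764 for *A. hirta*, 4244 for *C. parviflorum*, 3209 for *A. pubescens*, 2359 for *A. fluviatilis*, 1379.6 for *A. anomala* and 35.8 for *I. cylindrica*. The 2 groups overlapped: *B. ischaemum* and *C. parviflorum* lay inside the range of *Arundinella*, and *I. cylindrica* lay far below every other library. Without *I. cylindrica* the highest level was 7.99 times the lowest, and with it 308 times. Neighbours in this order cannot be tested, since no species was repeated.

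The other small subunit gene, GRMZM2G098520, was at 1619 FPKM for *A. nepalensis*. It was at 43.3 FPKM for *C. parviflorum*, 20.9 for *B. ischaemum*, 5.31 for *A. fluviatilis*, 0.97 for *I. cylindrica* and 0.35 for *A. pubescens*, and it was listed at 0 for *A. anomala* and *A. hirta*. *A. nepalensis* thus stood alone, and the next highest library was of another genus.

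The activase gene GRMZM2G162200 was abundant in 4 of the 5 *Arundinella* libraries. It reached 7676 FPKM for *A. nepalensis*, 1581 for *A. fluviatilis*, 521 for *A. pubescens* and 152 for *A. anomala*. It was at 2.03 FPKM for *B. ischaemum* and listed at 0 for *A. hirta*, *C. parviflorum* and *I. cylindrica*. The high libraries were the 4 that listed over 15000 genes, and no library had a level between 2.03 and 152 FPKM.

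The second activase gene, GRMZM2G162282, was low wherever it was listed. It was at 27.4 FPKM for *A. pubescens*, 13.3 for *A. hirta*, 8.57 for *A. fluviatilis*, 3.84 for *B. ischaemum* and 1.48 for *A. anomala*, and listed at 0 for *A. nepalensis*, *C. parviflorum* and *I. cylindrica*. Its order was unlike that of GRMZM2G162200: *A. nepalensis*, highest in the one, was at 0 in the other, and *A. hirta*, at 0 in the one, was second highest in the other.

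**Figure D1:**
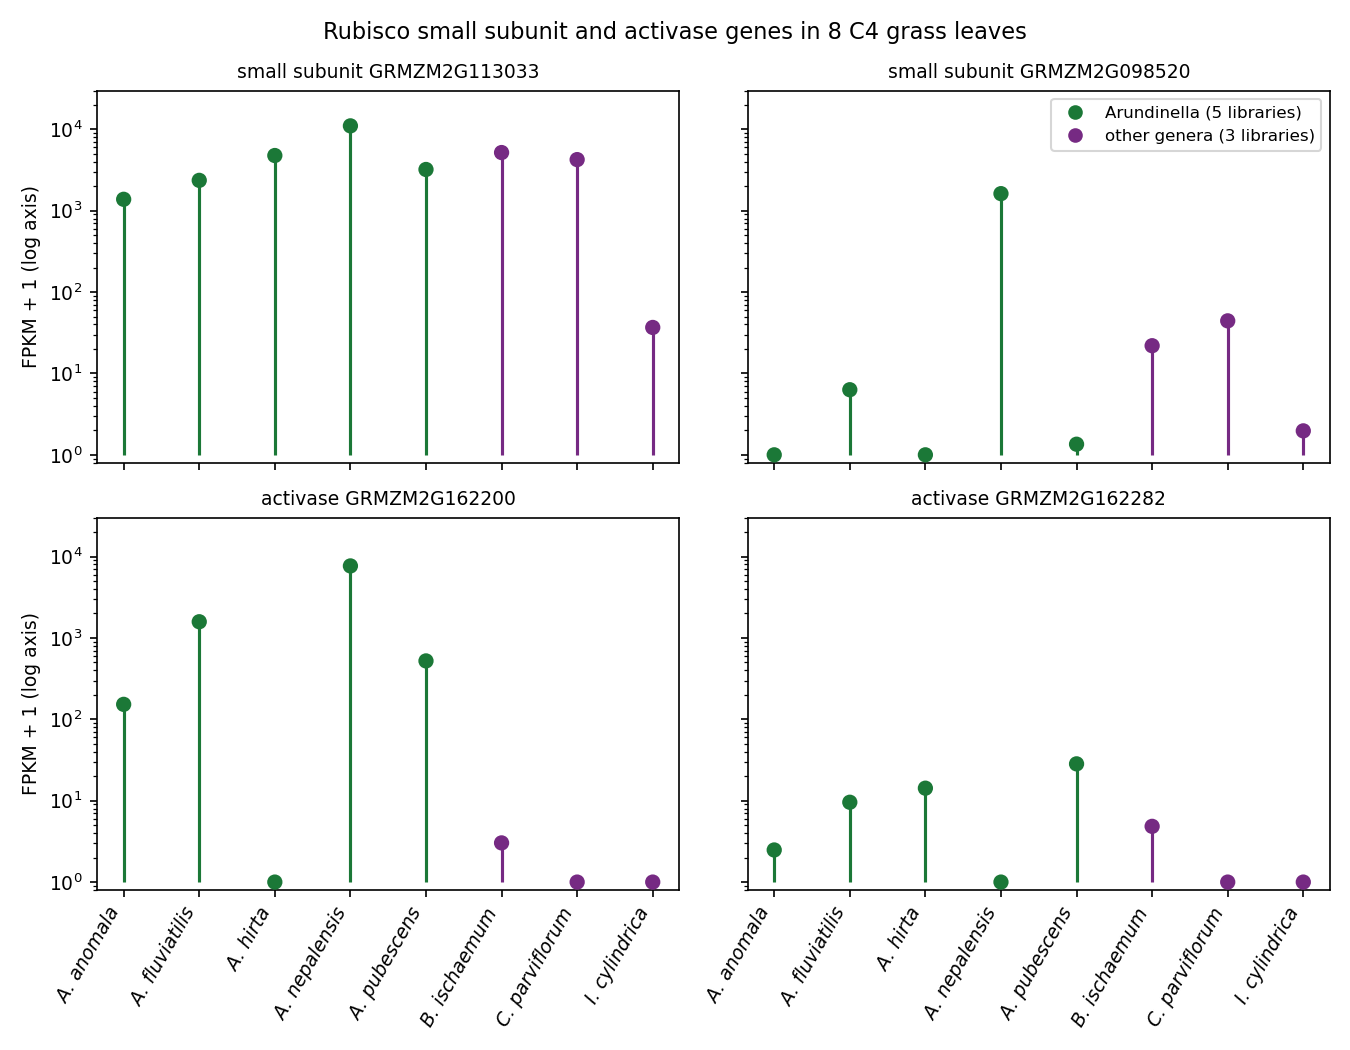
Level of each gene in each library, as FPKM + 1 on a log axis, with 1 point per library (green, *Arundinella*; purple, other genera). GRMZM2G113033 is high in all libraries but *I. cylindrica*, while GRMZM2G162200 is high in 4 *Arundinella* libraries only and at most 2.03 FPKM in the other 4 libraries.

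Most of the small subunit signal in every library came from the first protein model of GRMZM2G113033. A protein model is one predicted protein of a gene, and the table lists each on its own line. The model GRMZM2G113033_P01 was at 11027 FPKM for *A. nepalensis* and at 934 for *A. anomala*. The alternative model GRMZM2G113033_P02 was at 445 FPKM for *A. anomala*, which was 32.3% of that gene's sum there. In the other 7 libraries GRMZM2G113033_P02 was between 0 and 6.03 FPKM, at most 0.256% of the sum. *A. anomala* was therefore the only library in which the 2 models of this gene shared the signal. The model GRMZM2G098520_P02 was listed at 0 in all 8 libraries, so all values of its gene belong to GRMZM2G098520_P01. Each activase gene had 1 line. The deposited cross-reference of identifiers names a further model for GRMZM2G162200, GRMZM2G162200_P01, for which the expression table given here has no line.

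Taken as a sum over both genes, the small subunit was at 12648 FPKM for *A. nepalensis*, 5204 for *B. ischaemum*, 4764 for *A. hirta*, 4287 for *C. parviflorum*, 3209.6 for *A. pubescens*, 2364 for *A. fluviatilis*, 1379.6 for *A. anomala* and 36.7 for *I. cylindrica*. Its order changed when each level was expressed as a share of all FPKM listed in the same library, a scale that allows for the unequal listed totals. On that scale *C. parviflorum* came first, with 2.02% of its listed FPKM in the small subunit, ahead of *B. ischaemum* at 1.83%, *A. nepalensis* at 1.80% and *A. hirta* at 1.49%. The shares were 0.387% for *A. pubescens*, 0.291% for *A. fluviatilis*, 0.172% for *A. anomala* and 0.0105% for *I. cylindrica*. *A. hirta* exceeded *A. anomala* 3.45-fold in FPKM and 8.67-fold in share, while *I. cylindrica* was lowest and *A. anomala* next lowest on both scales.

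**Figure D2:**
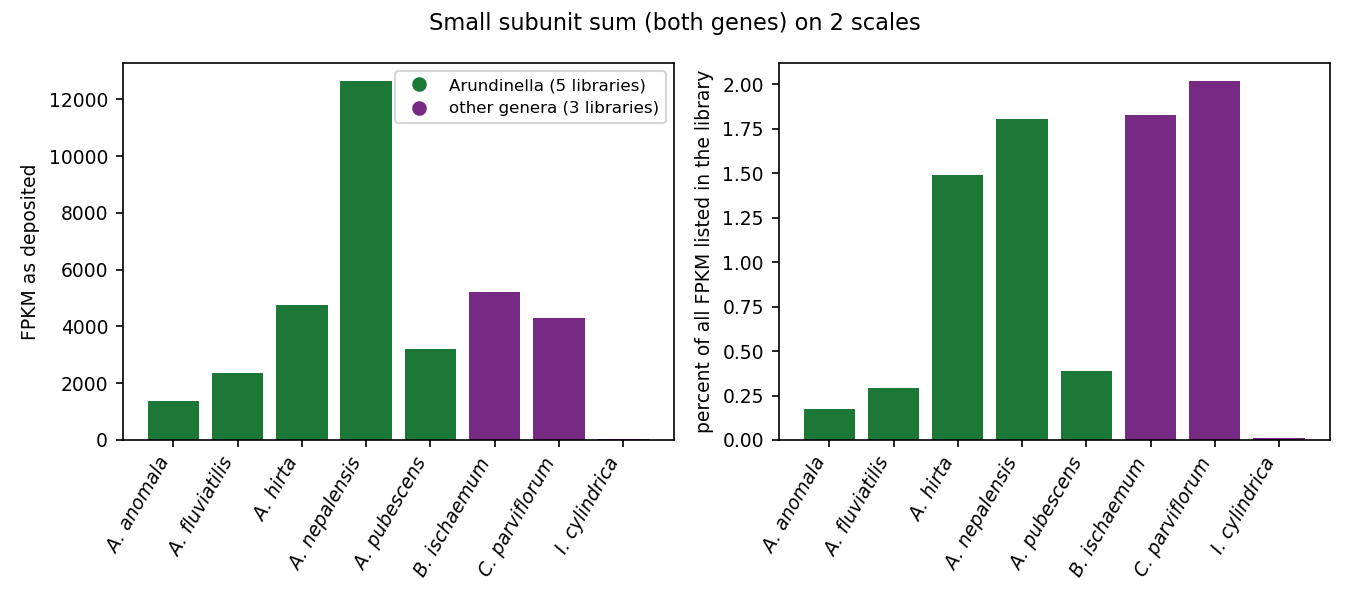
Sum of both small subunit genes in each library (green, *Arundinella*; purple, other genera), as deposited FPKM on the left and as percent of all FPKM listed in the library on the right. *A. nepalensis* leads on the left with 12648 FPKM, and *C. parviflorum* leads on the right with 2.02%.

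Activase as a sum over both genes was at 7676 FPKM for *A. nepalensis*, 1589.6 for *A. fluviatilis*, 548 for *A. pubescens*, 153 for *A. anomala*, 13.3 for *A. hirta* and 5.87 for *B. ischaemum*. Both activase genes were listed at 0 for *C. parviflorum* and *I. cylindrica*. As shares of all listed FPKM the sums were 1.09% for *A. nepalensis*, 0.195% for *A. fluviatilis*, 0.0662% for *A. pubescens*, 0.0191% for *A. anomala*, 0.00415% for *A. hirta* and 0.00206% for *B. ischaemum*, so the order was the same on both scales. Among the 4 *Arundinella* libraries with over 15000 genes listed, activase differed 50.1-fold between the highest and lowest library and the small subunit 9.17-fold, with *A. nepalensis* highest and *A. anomala* lowest in both. *A. fluviatilis* and *A. pubescens* exchanged places: the first had more activase and the second more small subunit.

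Ranking genes by FPKM within a library does not depend on the scaling between libraries, though it does depend on which other genes are listed. GRMZM2G113033 was the gene with the highest FPKM in *A. nepalensis*. It ranked 4 for *B. ischaemum* and *C. parviflorum*, 5 for *A. hirta*, 21 for *A. pubescens*, 22 for *A. fluviatilis*, 39 for *A. anomala* and 1253 for *I. cylindrica*. In *I. cylindrica*, 12.3% of the listed genes stood above it, against at most 0.186% in any other library. The low place of this gene in *I. cylindrica* was therefore present in rank as well as in FPKM.

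GRMZM2G098520 ranked 28 for *A. nepalensis*, 669 for *C. parviflorum* and 1808 for *B. ischaemum*. In the other 3 libraries that listed it, its ranks were between 9298 and 20410. The activase gene GRMZM2G162200 ranked 2 for *A. nepalensis*, directly after GRMZM2G113033. It ranked 41 for *A. fluviatilis*, 161 for *A. pubescens*, 781 for *A. anomala* and 6484 for *B. ischaemum*. The best rank of GRMZM2G162282 was 2962, in *A. hirta*. In *A. nepalensis* 3 of the 4 genes thus ranked 28 or better, and in no other library did more than 1 of them.

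**Figure D3:**
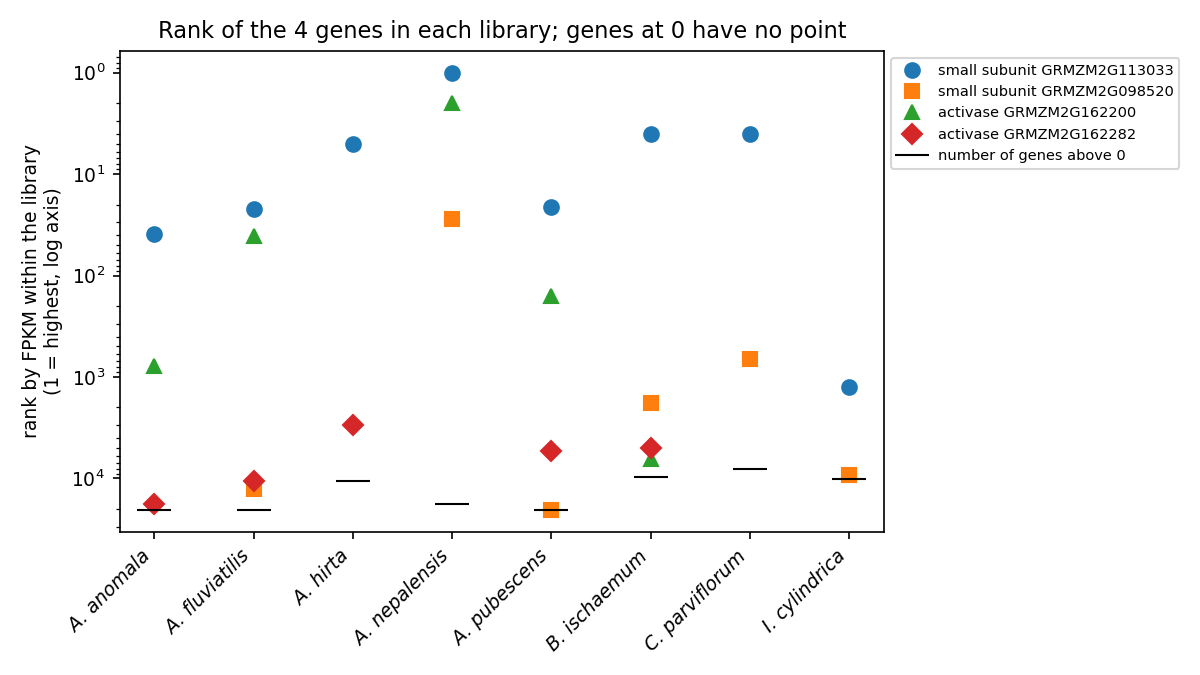
Rank of each gene by FPKM within each library on an inverted log axis, 1 being the highest, with a bar at the number of genes listed above 0; a gene listed at 0 has no point. GRMZM2G113033 ranks between 1 and 39 in 7 libraries and 1253 for *I. cylindrica*.

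The balance between the 2 small subunit genes was tested within each library, as the difference in log2(FPKM + 1). GRMZM2G113033 exceeded GRMZM2G098520 in 8 of 8 libraries. The log2 difference was 12.22 for *A. hirta*, 11.22 for *A. pubescens*, 10.43 for *A. anomala*, 8.55 for *A. fluviatilis*, 7.89 for *B. ischaemum*, 6.58 for *C. parviflorum*, 4.22 for *I. cylindrica* and 2.77 for *A. nepalensis*. The mean was 7.98 ± 3.34 (SD, n = 8) and differed from 0 (p = 0.00781 in an exact permutation test by sign flips, two-sided, the smallest p that 8 libraries can give). That test gives its smallest p whenever all libraries have the same sign. In *A. hirta* and *A. anomala* the size of the difference rests on the pseudocount of 1, since GRMZM2G098520 was listed at 0. GRMZM2G098520 supplied 12.8% of the small subunit sum in *A. nepalensis*, 2.64% for *I. cylindrica*, 1.01% for *C. parviflorum*, 0.402% for *B. ischaemum* and no more than 0.225% in the remaining 4.

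The activase genes had no such uniform balance. GRMZM2G162200 exceeded GRMZM2G162282 by 12.91 log2 units for *A. nepalensis*, 7.37 for *A. fluviatilis*, 5.94 for *A. anomala* and 4.20 for *A. pubescens*. The order was the other way in *A. hirta*, with a log2 difference of −3.83, and in *B. ischaemum*, with −0.68. Both genes were listed at 0 for *C. parviflorum* and *I. cylindrica*, which entered the mean and the test as differences of 0. Sign flips leave a difference of 0 unchanged, so this test could not reach the smallest p of the small subunit balance. The mean difference was 3.24 ± 5.41 (SD, n = 8), which the test did not set apart from 0 (p = 0.156 in the same exact permutation test). In the 4 libraries that listed over 15000 genes the mean was 7.61 ± 3.76 (SD, n = 4), with the same direction in each (exact sign-flip permutation p = 0.125, the smallest that 4 libraries can give). GRMZM2G162282 supplied all of the activase sum in *A. hirta*, 65.4% for *B. ischaemum*, 4.99% for *A. pubescens*, and at most 0.966% for *A. anomala*, *A. fluviatilis* and *A. nepalensis*. RSEM, the program named in the submitters' processing notes, shares out fragments that match several similar sequences by an estimate. Genes of a family and models of a gene can thereby exchange values. The part of this in the copy balance was not tested.

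Activase stood below the small subunit in 8 of 8 libraries. For every 100 FPKM of small subunit there were 67.2 FPKM of activase in *A. fluviatilis*, 60.7 for *A. nepalensis*, 17.1 for *A. pubescens*, 11.1 for *A. anomala*, 0.278 for *A. hirta* and 0.113 for *B. ischaemum*. The libraries formed 2 clusters, 4 at or above 11.1 and the rest below 0.3, the last 2 with activase listed at 0. The mean log2 difference, activase minus small subunit, was −5.28 ± 4.29 (SD, n = 8; p = 0.00781 in the same exact permutation test, the smallest possible). Over the 6 libraries with both families above 0 and with no pseudocount the mean was −4.22 ± 3.97 (SD, n = 6; exact sign-flip permutation p = 0.0313, the smallest possible). In the 4 libraries with over 15000 genes listed it was −1.75 ± 1.30 (SD, n = 4), below 0 in each of them (exact sign-flip permutation p = 0.125, the smallest possible). As activase was below the small subunit in all 8 libraries, no subset could change the direction or give any p but the smallest possible. The size did change, from −5.28 over all 8 libraries to −1.75 in the 4 with over 15000 genes listed.

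**Figure D4:**
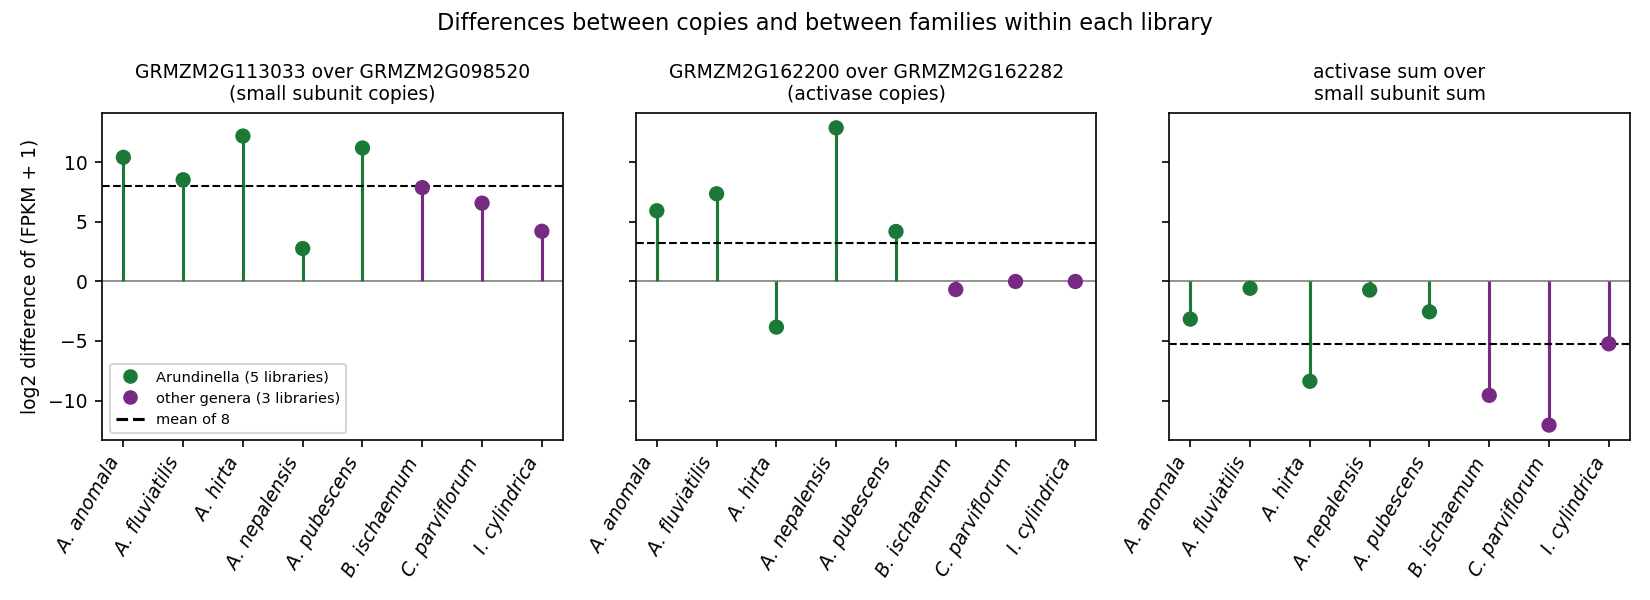
Difference in log2(FPKM + 1) within each library between the small subunit genes (left), the activase genes (middle) and the family sums (right); points are libraries (green, *Arundinella*; purple, other genera) and the dashed line is the mean of 8. All points lie above 0 on the left and below 0 on the right, while the activase genes differ in direction.

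*Arundinella* was then set against the other genera, since genus is the sole label by which several libraries can be grouped. All 4 genes passed the filter of at least 1 FPKM in at least 3 libraries, and 0 of the 4 passed limma's test at a Benjamini-Hochberg adjusted p of 0.05 over all genes, where 1.83% of the 18780 genes tested did. The unadjusted limma p was under 0.05 for 1 of the 4, GRMZM2G162200, and for 29.1% of all genes tested, so that count does not set the 4 genes apart. The log2 difference of GRMZM2G162200 was 7.43 ± 2.24 (SE), with an adjusted limma p of 0.0934 and an unadjusted p of 0.00509. GRMZM2G113033 differed by 1.92 ± 1.69 (SE; limma adjusted p = 0.401), GRMZM2G162282 by 1.89 ± 1.18 (adjusted p = 0.256) and GRMZM2G098520 by −0.88 ± 2.13 (adjusted p = 0.762). The median difference of the 4 genes was 1.90, and that of all genes tested was 1.74, with 91.4% of them fitted higher in *Arundinella*. Of the 343 genes called, 335 were higher (1.78% of the genes tested) and 8 lower (0.0426%) in *Arundinella*. Under quantile normalization 24 genes were called, 19 of them higher and 5 lower, and the median gene shifted by 0.16. Without *A. hirta* the adjusted limma p of GRMZM2G162200 was 0.00181, at a log2 difference of 9.42, and 6105 genes were called in place of 343. Each *Arundinella* library then left listed over 15000 genes and no other library did, so genus and listing could not be told apart. Without *I. cylindrica* the difference of GRMZM2G113033 was −0.41.

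The smaller differences depended on how the libraries were scaled, while their direction did not change with the 3 scalings tried. That of GRMZM2G113033 was 0.81 with median-of-ratios scaling, 1.33 with quantile normalization and 0.69 with each library scaled to the same listed total. That of GRMZM2G162282 was 1.55, 0.49 and 1.82 in the same order, and that of GRMZM2G098520 was −1.66, −2.22 and −2.35. The difference of GRMZM2G162200 stayed between 6.34 and 7.23. The median gene shifted by 1.17, 0.16 and 1.42, so GRMZM2G113033 was above the median gene as deposited and under quantile normalization and below it under the other scalings. None of the 4 genes passed limma under these scalings.

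For the family sums and their ratio the labels of the libraries were permuted over the 56 ways to choose 5 of 8. The mean log2(FPKM + 1) of activase was 8.75 ± 3.44 (SD, n = 5) in *Arundinella* and 0.93 ± 1.61 (SD, n = 3) in the other genera. The difference of 7.82 had an exact two-sided permutation p of 0.0357, and of 0.107 after Benjamini-Hochberg adjustment over the 3 quantities. It therefore failed the correction, although the activase sum of each *Arundinella* library was above that of each library of the other genera, the closest being *A. hirta* at 13.3 FPKM and *B. ischaemum* at 5.87. The separation held for the sum only. GRMZM2G162200 was listed at 0 for *A. hirta* against 2.03 FPKM for *B. ischaemum*. GRMZM2G162282 was listed at 0 for *A. nepalensis* against 3.84 FPKM for *B. ischaemum*. Of all genes tested, taken singly, 12.9% had groups that did not overlap. The small subunit differed by 1.94, at 11.83 ± 1.20 (SD, n = 5) against 9.88 ± 4.03 (SD, n = 3; exact permutation p = 0.411, adjusted p = 0.411). This difference was 0.84 with median-of-ratios scaling and 0.71 with equal listed totals, and −0.38 without *I. cylindrica*. The log2 ratio of activase to small subunit was −3.08 ± 3.17 (SD, n = 5) in *Arundinella* and −8.96 ± 3.45 (SD, n = 3) elsewhere (exact permutation p = 0.0714, adjusted p = 0.107). Activase was listed at 0 for *C. parviflorum* and *I. cylindrica*, so the sizes of the activase and ratio differences depend on the pseudocount. The ratio differed by 5.88 with the pseudocount of 1, by 8.13 with one of 0.1 and by 3.53 with one of 10. The smallest p this design allows is 0.0179.

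Libraries that listed many genes and libraries that listed few were apart in activase and overlapped in the small subunit. Activase was between 153 and 7676 FPKM in the 4 libraries that listed over 15000 genes and between 0 and 13.3 in the 4 others. The small subunit was between 1379.6 and 12648 FPKM in the first 4 and between 36.7 and 5204 in the others, with medians of 2787 and 4526. All libraries of the first kind were *Arundinella*, so genus could be compared only among the others, as *A. hirta* alone against 3: 13.3 FPKM of activase against 0 to 5.87, and 4764 FPKM of small subunit against 36.7 to 5204. The part of the listing in the activase levels was not tested. Because the libraries form 2 clusters of 4 in activase, no correlation between the family sums was computed.

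**Figure D5:**
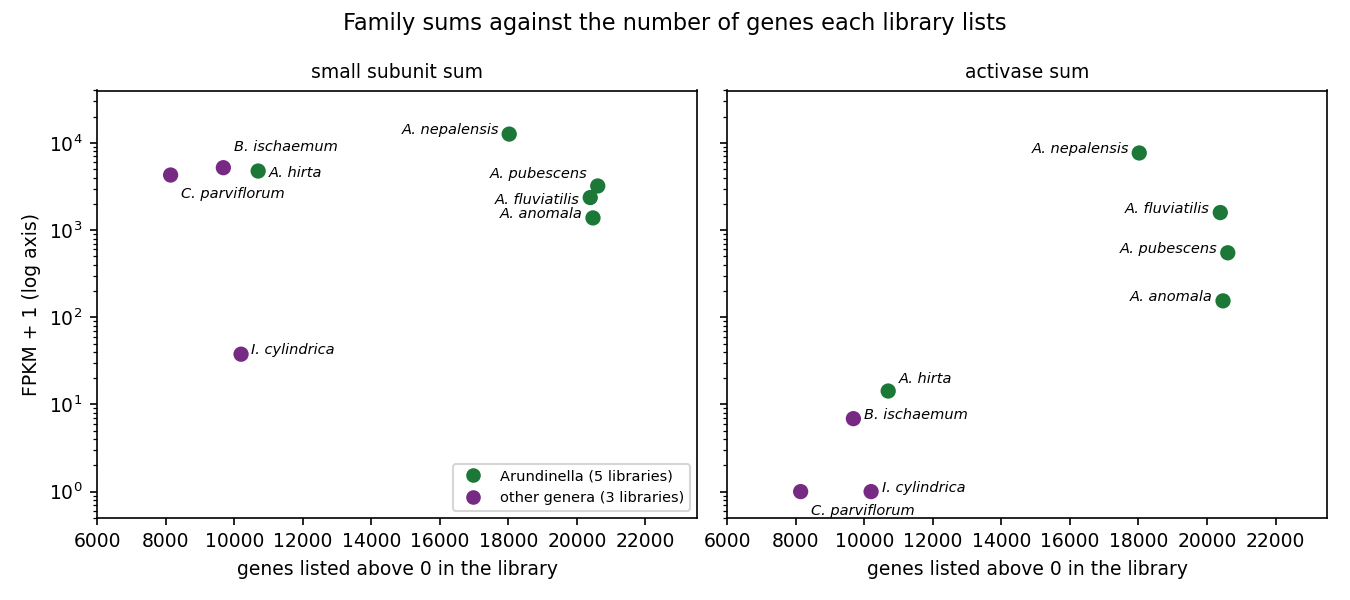
Family sums as FPKM + 1 on a log axis against the number of genes each library lists above 0 (green, *Arundinella*; purple, other genera). Activase is at most 13.3 FPKM in the 4 libraries with at most 10697 genes listed, where the small subunit is at 4287 to 5204 FPKM in all but *I. cylindrica*.

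The genes most like the members in pattern were sought by Pearson's r of log2(FPKM + 1) over the 8 libraries among the genes tested. Closest to the small subunit sum were GRMZM2G034260 (r = 0.985) and GRMZM2G145449 (r = 0.984), which were between 11.2 and 75.0 FPKM and between 12.2 and 32.1 FPKM in 7 libraries and listed at 0 for *I. cylindrica*. Closest to the activase sum were GRMZM2G352858 (r = 0.978) and GRMZM2G088086 (r = 0.976), both highest in *A. nepalensis*, at 9.58 and 19.8 FPKM. The files give these identifiers no names. The values of r rest on 8 points that share the listing of their libraries, and were picked as the highest among all genes tested. Those for the small subunit sum rest heavily on *I. cylindrica*, the lowest library in that sum and in both genes. No r without that library was computed.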

How the data were processed

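RNA from leaves of 8 C4 grass species, 1 library per species, was made into libraries with a TruSeq RNA kit, per the labels' protocols. The values are FPKM as the authors deposited them, in 1 table for all libraries. RSEM is named in the submitters' processing notes. The labels and file headers name neither its version nor an aligner or a reference: these are not given in the sources used. A deposited cross-reference of identifiers, a file of another kind with no measurements, was read only for the protein models of the members.

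Protein model lines were summed per gene to 26274 genes. The 18780 genes that reached 1 FPKM in 3 or more libraries were fitted as log2(FPKM + 1) by limma 3.58.1 under R 4.3.3 (trend, two-sided), with Benjamini-Hochberg adjustment over all of them. This scale understates changes of low genes. Single values were tested by exact permutation in Python 3.11.15 with numpy 2.4.6. The tests were tried on simulated normal values, which lack the zeros and the unequal listing of these libraries. Species were the replicates, so p-values cover only how much these libraries varied, and species of a genus share ancestry. The 4 genes were chosen with earlier results of these data known. Named beside them are the 2 genes most like each family sum. Lists of other Calvin cycle and photorespiration genes needed gene descriptions, which the files do not hold, so they were not run. Depth is unknown.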

Additional observations from a re-analysis of the deposited data

Results flagged for a closer look

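Among the *Arundinella* libraries, GRMZM2G098520, the small subunit gene with the lower level, stood apart in *A. nepalensis*. Its log2(FPKM + 1) of 10.66 was far above the other 4 *Arundinella* libraries, which were between 0 and 2.66. The gap to the nearest of them was 0.751 of the whole range, above the critical value of 0.71 for 5 samples. That value presumes normally spread values, while this gene was listed at 0 for *A. anomala* and *A. hirta*. The lower end of the range therefore rests on the pseudocount of 1, and the gap under other pseudocounts was not tested. The other genera were not part of this comparison. They were at 5.47 for *C. parviflorum*, 4.45 for *B. ischaemum* and 0.98 for *I. cylindrica*, and the gap over all libraries was not tested. Of the 9 quantities examined in this way (4 genes, 2 family sums and 3 log2 differences) GRMZM2G098520 alone exceeded the critical value. For normally spread values, chance gives such a gap in about 1 group in 20.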

How the results depend on the processing

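The direction and side of the threshold of the 2 copy balances and of the activase to small subunit ratio held under every alternative with enough libraries for the exact permutation test to pass. For the small subunit balance and the ratio, leaving out libraries could not have changed this, since all 8 libraries had the same sign. The activase balance could not pass once a library that listed an activase gene was left out or averaged with another. *C. parviflorum* and *I. cylindrica* entered that test as 0 and left too few other libraries. In the 4 libraries with over 15000 genes listed, which are too few, the small subunit balance was 8.24 and the ratio −1.75. The count of genes called between the genera was 799 with a pseudocount of 0.1, 0 with one of 10 (limma; 4517 at an unadjusted p under 0.05), 175 with median-of-ratios scaling (median shift 1.17), 24 with quantile normalization, 621 without trend and 4840 with *A. anomala* and *A. hirta* averaged. It was 21 (without *C. parviflorum*) to 6105 (without *A. hirta*) with 1 library left out. With a pseudocount of 0.1 the difference between genera was 10.08 for activase and 8.13 for the ratio, each at an adjusted exact permutation p of 0.0268. With a pseudocount of 10 these differences were 5.37 and 3.53, at adjusted exact permutation p of 0.161 and 0.321. Their size and their side of the threshold thus depended on the pseudocount. With 1 library left out, these were 6.78 to 9.05 and 4.32 to 7.74, passing without *A. hirta* (exact permutation, adjusted p = 0.0429 each). The small subunit sum gave −0.38 (without *I. cylindrica*) to 3.17, GRMZM2G113033 −0.41 to 3.16, and GRMZM2G098520 −2.86 to 0.034 (the latter without *C. parviflorum*). GRMZM2G098520 gave 0.21 with a pseudocount of 10. GRMZM2G162200 passed with *A. anomala* and *A. hirta* averaged (limma adjusted p = 0.00311). GRMZM2G162282 did not reach the filter of 10 FPKM. Leaving out *A. hirta*, or averaging it with *A. anomala*, removes the only *Arundinella* library that listed few genes. Genus and listing then coincide and cannot be told apart. The cause of the changes between settings was not tested. Scaling to a common listed total and the subsets of libraries were chosen after seeing the data. Libraries could not be paired with each other, since each species had 1 library. Only the copy balances and the ratio compare values within a library. Without counts, what depth limits is unknown.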
